A study of Mus musculus with 10 samples.

Results

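This report compares mouse mammary tumours whose array titles name FVBn or ILn with tumours whose titles name LP or NZB. The members are arrays, chosen by their titles: 1 FVBn and 2 ILn arrays on one side, 2 LP and 2 NZB arrays on the other, 7 of the 10 arrays in all. These strains were put together with results of the same arrays known, namely the secretory genes Bpifa2, Amy1 and Chia1, the genes Pglyrp1 and D17H6S56E-5, and the ratios of 3' to 5' control signal. The contrast between the sides is therefore a description. Its counts, differences and standard errors (SE) are given, with no p-value for a gene. Tests are given for FVBn against ILn and for LP against NZB, which that choice did not use.

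The series concerns how virulent mammary tumours are in mice with the MMTV-PyMT transgene, and looks for that in gene expression. In this model the promoter of mouse mammary tumour virus drives the middle T antigen of polyomavirus, mostly in mammary epithelium, so that tumours arise in several glands of a female. Total RNA of mammary tumours from adult females aged 90 days was hybridised to Affymetrix mg_u74av2 oligonucleotide arrays. Of the other 3 arrays, 2 are titled MOLF, used here for comparison, and 1 names no strain.

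All groups carry the same label for strain, FVB/Nj, the same age and the same tissue, so that FVBn, ILn, LP and NZB differ only by their titles. No label says how a named strain was combined with the transgene. The titles of the 9 strain arrays call each a mix without saying of what, and no label says that the arrays A and B of a strain came from separate animals, so the spread between arrays may be technical. In such bulk RNA, fewer cells of a type and less RNA per cell cannot be told apart.

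Mammary, salivary and lacrimal glands are all exocrine glands, and the mouse salivary glands lie close to the foremost mammary glands. Their secretory cells are marked by amylase, parotid secretory protein, kallikreins and proline-rich proteins. Interferon response genes are a separate programme that is switched on when cells sense interferon, and they include the MHC class I pathway that shows peptides to T cells. Skeletal muscle lies beneath the mammary fat pad and is recognised by the proteins of its contractile apparatus.

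Levels are log2 normalized intensity, and a difference is the mean of the FVBn and ILn arrays minus the mean of the LP and NZB arrays on that scale. Intensities below 27.0, a log2 level of 4.75, were raised to that floor, and a fold against a group that lies wholly at the floor is written as "at least". Of 12422 probe sets, 9043 lay above the floor on at least 3 of the 7 arrays and were compared, for 6630 genes with 1 symbol. A probe set is named "called" where limma gave an adjusted p under 0.05, a rule used here only to sort probe sets for description.

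The RNA of the sides differed in quality controls before any gene is considered. For actin, the 3' over 5' control ratio on the log2 scale was 0.22 on FVBn B, 0.22 on ILn A and 0.28 on ILn B, and 1.12, 0.94, 0.96 and 1.03 on LP A, LP B, NZB A and NZB B. For Gapdh it was −0.29, −0.41 and −0.21 against 0.37, 0.26, 0.25 and 0.19. The sides did not overlap in either ratio, and MOLF A and MOLF B measured 0.78 and 0.60 for actin, between the sides, and 0.20 and 0.31 for Gapdh, within the range of LP and NZB. For the transferrin receptor and pyruvate carboxylase controls, NZB B stood far from NZB A (4.45 against 1.81, and 0.40 against 2.09). LP A stood far from LP B for the transferrin receptor (3.73 against 1.58), and MOLF A measured 3.71 and 0.18. NZB B also stood apart over all probe sets, with correlations inside the LP and NZB side running from 0.83 to 0.963, those inside the FVBn and ILn side from 0.955 to 0.970, and those between sides from 0.811 to 0.949 (across probe sets, which are not independent). MOLF A stood apart too, at 0.870 with MOLF B. NZB B correlated at 0.924 with MOLF A and at 0.856 with NZB A. The part of RNA quality in the differences below was not tested, and it cannot be told apart from strain.

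**Figure D1:**
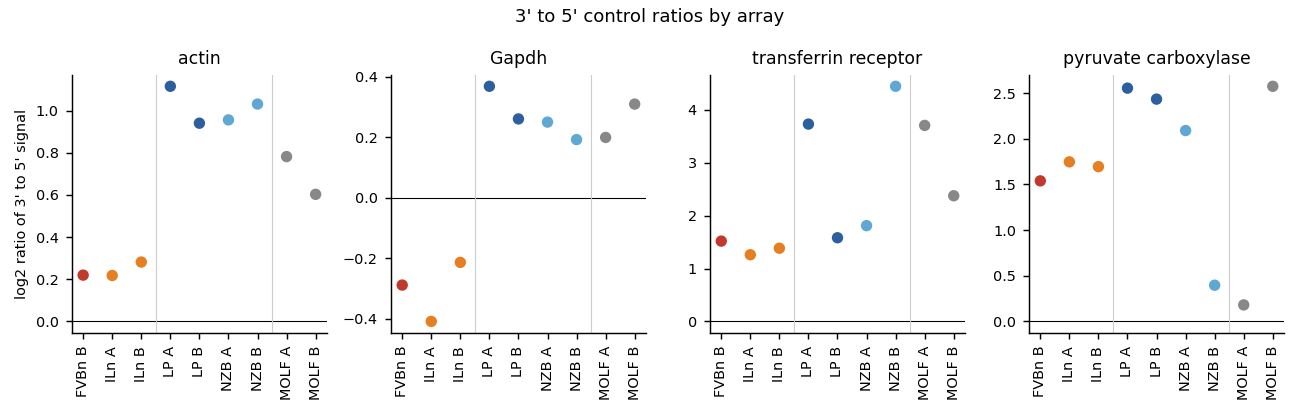
Log2 ratio of 3' to 5' signal (y axis, a separate scale in each panel) for 4 control transcripts on each of the 9 strain arrays (x axis), 1 point per array, with grey lines between the FVBn and ILn, the LP and NZB, and the MOLF arrays. The actin points of FVBn and ILn lie between 0.22 and 0.28 and those of LP and NZB between 0.94 and 1.12.

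Markers of mammary epithelium and milk were high on both sides. Krt8, a keratin of luminal epithelium, measured 11.10, 10.84 and 11.40 on FVBn B, ILn A and ILn B, and 11.30, 11.18, 10.81 and 10.83 on LP A, LP B, NZB A and NZB B. Csn3, which encodes kappa casein, measured 13.02, 12.87 and 13.26 against 13.07, 12.95, 12.71 and 13.02. Their values overlapped, as did those of Krt18, Epcam, Csn2 and Wap. Of 31 measured genes of the mammary and milk list 0 were called. Over all 6630 genes 24 were called higher and 32 lower, so nothing is read from that count. The median difference was −0.06, against 0.01 over all genes. The largest differences in that list were those of the transcription factor Stat5b (1.14, SE 0.34) and of Acta2, the smooth muscle actin of myoepithelium (−0.57, SE 0.20), neither of them called, though both kept the sides apart on every array.

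Of the 9043 probe sets, 50 (0.553%) were called higher in FVBn and ILn and 43 (0.476%) lower, for 39 and 35 named genes. In 679 probe sets (7.51%) the 3 FVBn and ILn arrays all lay above the 4 LP and NZB arrays, and in 468 (5.18%) they all lay below. The sides were chosen with such differences in view, so nothing is read from these shares. All 93 called probe sets kept the sides apart on every array. That fixes their sign within each of the title date batches that hold arrays of both sides, so the shared sign is no separate check. Batch 4 holds FVBn B, ILn B, LP B and NZB A. Batch 2 holds ILn A and NZB B, which differed by at least 0.60 on the log2 scale for each of the 93 and by 1 or more for 74. The counts moved with single arrays: without ILn A, 8 were called higher and 4 lower, and without NZB B, 87 and 74. With title date as a block they were 18 and 12.

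**Figure D2:**
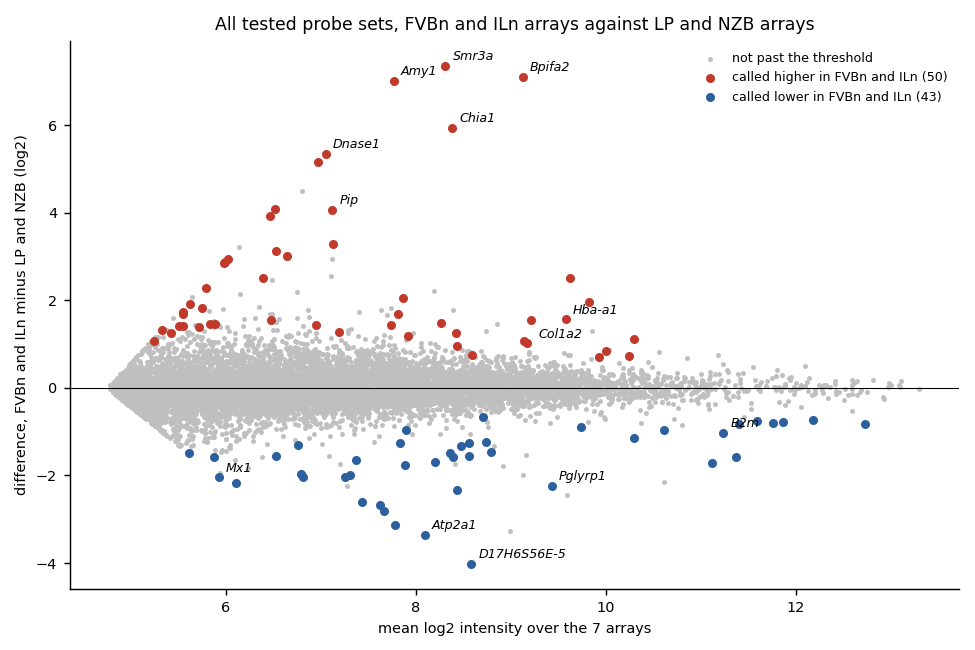
Difference between the FVBn and ILn arrays and the LP and NZB arrays (y axis, log2) against the mean log2 intensity of the 7 arrays (x axis) for each of the 9043 probe sets compared. Grey points were not called, red points (50) were called higher and blue points (43) lower. Secretory genes such as Smr3a (7.37) lie farthest above 0 and D17H6S56E-5 (−4.01) farthest below.

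The largest differences were those of secretory proteins of salivary glands, which were abundant in FVBn and ILn tumours and near or at the floor in LP and NZB. Bpifa2, the parotid secretory protein, measured 13.33 on FVBn B, 13.14 on ILn A and 13.10 on ILn B, and 7.17, 5.72, 6.02 and 5.38 on LP A, LP B, NZB A and NZB B. The means were 13.19 ± 0.12 (SD, n = 3) and 6.07 ± 0.78 (SD, n = 4), a difference of 7.12 (SE 0.36), or 139-fold. The sides were more than 5 log2 units apart at their closest arrays. Amy1, the amylase that digests starch, measured 11.68, 12.04 and 11.61 on the FVBn and ILn arrays and lay at the floor on all 4 LP and NZB arrays, so that it was at least 129.9-fold higher. Smr3a, a submaxillary gland protein that is cut into small peptides, measured 12.24, 12.65 and 12.67 against 6.35 on NZB A and the floor on LP A, LP B and NZB B (difference 7.37, SE 0.38). Only 1 of the 4 arrays of LP and NZB therefore gave Smr3a a level, and the difference is an understatement.

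Chia1, an acidic chitinase that breaks down chitin, was the steadiest of these genes. It measured 11.72, 11.87 and 11.74 on FVBn B, ILn A and ILn B and 5.97, 5.81, 5.64 and 5.90 on LP A, LP B, NZB A and NZB B, a difference of 5.95 (SE 0.15), or 61.7-fold. The arrays of each side lay close together. Dnase1, a secreted nuclease, measured 9.68, 10.22 and 10.42 and was at the floor on all 4 arrays of the other side, at least 40.8-fold lower there. Pip, a protein of tears, saliva and apocrine secretions, measured 9.80, 9.35 and 9.18 against 6.16, 4.75, 5.83 and 4.75 (difference 4.07, SE 0.39). Pip and Dnase1 had no overlap between sides.

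The kallikreins, serine proteases of the submandibular gland, were also higher, with FVBn B well above the ILn arrays. Klk1 measured 10.35 on FVBn B, 7.80 on ILn A and 7.99 on ILn B, and 4.86 on NZB A with the floor on LP A, LP B and NZB B (difference 3.93, SE 0.55). Klk1 was called in 15 of the 19 other settings that tested it. Klk1b1 measured 10.51, 7.99 and 8.54 against 5.65, 6.12, 6.34 and 4.75, and Klk1b5 measured 9.15, 6.54 and 7.15 with LP and NZB at the floor throughout. Neither kept its call in all settings, and without NZB A neither was called. These probe sets share probes with other kallikreins of the family, so the members cannot be separated with certainty.

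Proline-rich and other secreted proteins followed. Prpmp5, a proline-rich salivary protein, measured 8.27, 8.45 and 8.24 against 5.99, 5.11, 4.86 and 4.75 (difference 3.14, SE 0.33), and its other probe set was called as well (2.51). Gm4736 measured 7.69, 7.85 and 7.59 with all LP and NZB arrays at the floor, and its probe set shares probes with other family members. Wfdc12, a small protein of the whey acidic protein family, measured 9.76, 7.63 and 7.70 against 6.05, 5.74, 4.84 and 4.75 (difference 3.02, SE 0.56), with its other probe set at a difference of 0.02. Wfdc12 was not called without any 1 of FVBn B, ILn A, ILn B, LP A, LP B or NZB A. Scgb1b27, a secretoglobin of lacrimal and salivary glands, was high throughout, at 11.19, 10.92 and 10.71 against 9.89, 9.86, 9.93 and 9.59 (difference 1.12, SE 0.15).

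Of the 49 genes of the salivary and lacrimal list, 26 were on the array and 21 passed the filter on low values. A gene that is at the floor in LP and NZB passes that filter only where it is high in FVBn and ILn, so the counts describe the list and support nothing. A list's counts use each gene's brightest probe set. By these, 11 were called higher and 0 lower, with a median difference of 2.46 against 0.01 over all genes, where 24 of 6630 were called higher and 32 lower. The list's mean level lay between 8.95 and 9.89 in FVBn and ILn, between 6.06 and 6.59 in LP and NZB and between 6.81 and 7.21 in MOLF. Some members did not follow it. Pigr, the receptor that carries IgA into secretions, overlapped (difference −0.01), Slc12a2, the chloride cotransporter of secretory epithelium, was lower on every FVBn and ILn array (difference −0.58, SE 0.12, not called), and Egf differed by 0.63 (SE 0.43).

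**Figure D3:**
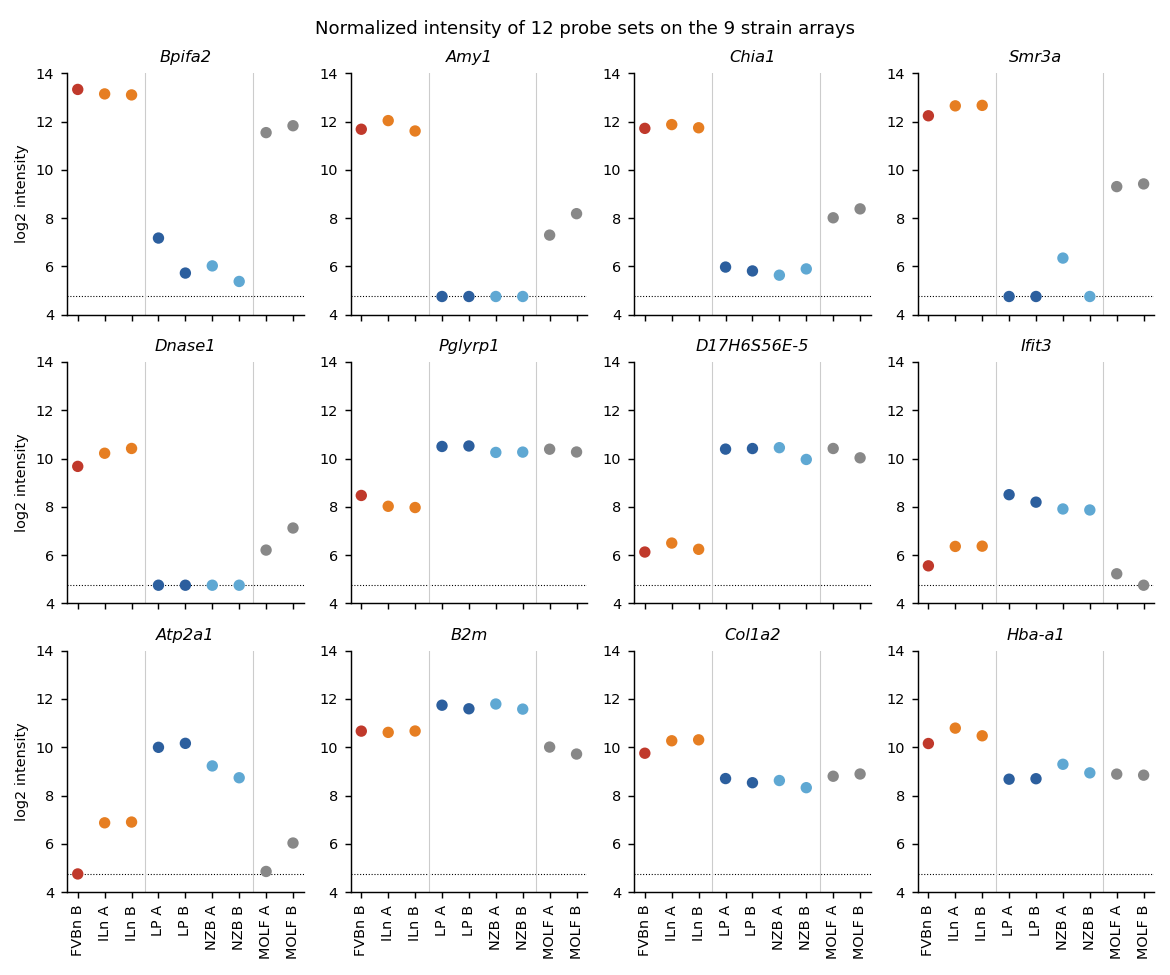
Log2 intensity (y axis) of 12 probe sets on the 9 strain arrays (x axis), 1 point per array, red for FVBn, orange for ILn, dark blue for LP, light blue for NZB and grey for MOLF, with the floor of 4.75 as a dotted line. FVBn and ILn arrays stand above LP and NZB for Bpifa2, Amy1, Chia1, Smr3a, Dnase1, Col1a2 and Hba-a1, and below for Pglyrp1, D17H6S56E-5, Ifit3, Atp2a1 and B2m. MOLF takes the side of LP and NZB for Pglyrp1 and D17H6S56E-5, and lies below every FVBn and ILn array for Ifit3 and B2m.

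D17H6S56E-5, a transcript named for a segment of chromosome 17, had the largest difference in the other direction. It measured 6.13, 6.50 and 6.24 on FVBn B, ILn A and ILn B and 10.39, 10.41, 10.45 and 9.96 on LP A, LP B, NZB A and NZB B. The difference was −4.01 (SE 0.17), or 16.2-fold lower, with no array between the sides. Pglyrp1, which binds bacterial peptidoglycan and is stored in neutrophil granules, measured 8.47, 8.02 and 7.97 against 10.50, 10.52, 10.25 and 10.27 (difference −2.23, SE 0.16, or 4.69-fold lower), and its other probe set agreed in sign and call (−1.70). Pglyrp1 was the only one of the 15 measured genes of the neutrophil and acute phase list to be called. That list had a median difference of −0.04, the granule protease Elane differed by −0.04, and the calcium-binding S100a8 overlapped at −0.28 (SE 0.40).

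D17H6S56E-5 lies in the MHC region of chromosome 17, by the RefSeq gene order of GRCm38.p6. Of 60 genes compared from H2-K1 to H2-D1 in that order, 5 had a called probe set, against 74 of all 6630 genes. The median difference of the 60 was −0.20, against 0.01 over all genes. The sides were chosen with such differences in view, D17H6S56E-5 among them, so nothing is read from this share. The 5 did not share a direction: D17H6S56E-5, H2-K1, H2-D1 and Notch4 were lower, and Bag6, a chaperone of protein quality control, was higher (7.84, 7.14 and 7.12 against 5.73, 6.18, 5.88 and 5.42). The other 3 probe sets of Bag6 overlapped, 1 of them with the opposite sign (−0.81, 0.35 and 0.35). The called probe set of Notch4, a receptor of endothelium, measured 10.62, 10.19 and 9.60 against 12.28, 12.01, 11.69 and 11.44 (difference −1.72, SE 0.26). That probe set was called in 10 of 20 other settings. The other probe set of Notch4 overlapped at a difference of 0.46 (SE 0.25), so the 2 disagree on Notch4.

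Of 30 measured interferon response genes, 10 were called lower in FVBn and ILn. Ifit3, an antiviral protein that binds foreign RNA, measured 5.56, 6.36 and 6.37 on FVBn B, ILn A and ILn B and 8.5, 8.19, 7.91 and 7.87 on LP A, LP B, NZB A and NZB B (difference −2.02, SE 0.28, or 4.06-fold lower). Its neighbour Ifit1 measured 6.30, 7.00 and 7.34 against 8.70, 9.17, 8.65 and 8.0 (difference −1.75, SE 0.32). The sides did not overlap in either, though Ifit1 was called only in 6 of 20 other settings and in none that left out an array other than NZB B. Mx1, a dynamin-like GTPase that blocks influenza virus, lay at the floor on all 3 FVBn and ILn arrays and measured 6.80, 6.80, 6.43 and 7.14 on LP A, LP B, NZB A and NZB B, at least 4.11-fold higher there. Mx1 was not called without ILn A or without ILn B.

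Effectors and feedback genes of the same response were also called lower. Isg15, a ubiquitin-like protein that is attached to other proteins, measured 8.13, 7.81 and 7.91 against 9.63, 9.68, 9.12 and 9.26 (difference −1.47, SE 0.18). Usp18, the protease that removes it and dampens signalling, measured 5.78, 6.30 and 6.44 against 8.53, 8.30, 7.78 and 8.02 (difference −1.98, SE 0.26). Neither gene had an FVBn or ILn array above the lowest LP or NZB array. The immunity-related GTPases Igtp (−1.65, SE 0.24) and Irgm2 (−1.25, SE 0.23), which act on the vacuoles of intracellular pathogens, and Mx2 (−1.31, SE 0.24) were called too, as was Ifitm3, which blocks viral entry (10.99, 10.98 and 10.82 against 11.70, 11.92, 11.73 and 11.66). Irf7, a transcription factor of the response, kept the sides apart at −1.34 (SE 0.26) and was not called, and Irf1 overlapped at −0.03.

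Of 30 measured genes of the interferon list, 10 were called lower and 0 higher, 17 were lower on every array, and the median difference was −0.78. Over all 6630 genes, 32 were called lower, 335 were lower on every array, and the median was 0.01. The list's mean level lay between 6.5 and 6.95 in FVBn and ILn, between 7.44 and 7.90 in LP and NZB and between 6.33 and 6.49 in MOLF. MOLF thus lay below each FVBn and ILn array in this mean.

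Promoters are shown for some of the called interferon genes, picked from those that hold a sequence element which the choice of the arrays did not use. The element is GAAANNGAAA on either strand, the core of the interferon-stimulated response element. It was searched in the 300 bases around each gene start in RefSeq's GRCm38.p6. The sequences below run 5' to 3' on the strand of the gene, with the match nearest the gene start in capitals. The windows of Ifit1, Ifit3 and Isg15 held 2, 2 and 3 matches. Further matches of Ifit1 and Isg15 fall within the bases shown and stand in lower case. Ifit1 is on chr19:34640779-34640838 (+), Ifit3 on chr19:34583382-34583441 (+), Igtp on chr11:58199497-58199556 (+), Irgm2 on chr11:58214888-58214947 (+) and Isg15 on chr4:156200850-156200909 (−).
Ifit1: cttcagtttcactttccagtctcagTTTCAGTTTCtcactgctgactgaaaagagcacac
Ifit3: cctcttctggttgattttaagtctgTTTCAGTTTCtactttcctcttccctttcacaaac
Igtp: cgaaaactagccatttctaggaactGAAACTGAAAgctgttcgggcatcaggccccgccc
Irgm2: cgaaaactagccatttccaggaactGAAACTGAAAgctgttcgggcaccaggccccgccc
Isg15: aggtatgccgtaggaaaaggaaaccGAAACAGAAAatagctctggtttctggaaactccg

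Of the 10 interferon genes called lower, 6 had a window in the table, and all 6 held a match, the 5 above and Ifitm3. Mx1, Mx2, Usp18 and Iigp1 had none in the table. Among all 24 interferon genes with a window, called or not, 14 (58.3%) held a match. Of compared genes with a window 194 of 5324 (3.64%) did, and of all genes with a window 1079 of 27025 (3.99%). Of the genes called lower 9 of 24 with a window held one, and of those called higher 0 of 34. The other 3 of the 9 were D17H6S56E-5, B2m and Ogfr. The interferon list was built from genes known to respond to interferon, so its share describes the list. A match is a string of letters and not a measured binding site.

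Some genes of MHC class I were called lower, by smaller amounts. B2m, the light chain common to all class I molecules, measured 10.67, 10.62 and 10.67 on FVBn B, ILn A and ILn B and 11.74, 11.59, 11.79 and 11.58 on LP A, LP B, NZB A and NZB B, a difference of −1.02 (SE 0.11), or 2.03-fold lower. The spread within each side was small beside it (SD 0.03 and 0.11). The class I heavy chains H2-K1 and H2-D1 differed by −0.74 (SE 0.10) and −0.78 (SE 0.13). They were called in 11 and 8 of 20 other settings, and neither without FVBn B, ILn A or ILn B. The other 2 probe sets of H2-K1 were called lower as well (−0.88 and −1.55), and those of H2-D1 were not (−0.29 and −1.78). These heavy chain probe sets share probes across the H2 family, so the members cannot be separated with certainty.

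The peptide loading genes Tap1 (−0.88, SE 0.21) and Tap2 (−0.82, SE 0.24), the peptide transporter, and Psmb8 (−0.67, SE 0.19), a subunit of the immunoproteasome, were lower on all 3 FVBn and ILn arrays and not called. A second, dimmer probe set of Tap1 was higher on all 3 (0.50, SE 0.24). Class II genes overlapped, with H2-Ab1 at 0.12 (SE 0.21) and the invariant chain Cd74 at 0.23 (SE 0.21). Of 25 measured genes of the MHC list, 2 were called lower and 0 higher by their brightest probe sets, against 32 and 24 of all 6630 genes, with a median difference of −0.29. Within batch 2 that median was 0.03.

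Of 32 measured skeletal muscle genes, 11 were called lower in FVBn and ILn. A dimmer probe set of Atp2a1, the calcium pump of fast fibres, was called and lay at the floor on FVBn B. It measured 6.87 and 6.90 on ILn A and ILn B, and 9.998, 10.16, 9.23 and 8.74 on LP A, LP B, NZB A and NZB B (difference −3.35, SE 0.55, or 10.2-fold lower). The brighter one measured 6.71, 8.98 and 8.89 against 10.56, 10.87, 10.58 and 10.57 and was not called, so Atp2a1 is not among the 11. Tnnt3, the fast form of troponin T, lay at the floor on FVBn B and measured 6.46 and 6.76 on ILn against 9.30, 9.09, 8.54 and 9.59 (difference −3.14, SE 0.46). The sides did not overlap, and ILn lay between FVBn and the other strains. Myh1, a fast myosin heavy chain (−2.67), Actn3, the actinin of fast fibres (−2.61), Cox6a2, a cytochrome oxidase subunit of striated muscle (−2.80), Tnnc2, fast troponin C (−2.34), and Ckm, muscle creatine kinase (−2.02), were called as well. All but Tnnc2 lay at the floor on FVBn B.

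Of 32 measured muscle genes, 11 were called lower and 0 higher, 20 were lower on every array (32 and 335 of all 6630 genes were called lower and lower on every array), and the median difference was −1.38, with −1.62 within batch 4 and −0.89 within batch 2. The muscle list's mean level lay between 6.14 and 7.06 in FVBn and ILn and between 7.83 and 8.34 in LP and NZB. In MOLF it lay between 6.46 and 6.47, within the range of FVBn and ILn, and on the array with no strain name it was 9.59. The sides overlapped in Tnni1, slow troponin I (0.00), Atp2a2, the pump of slow and heart muscle (0.14), and Myod1, a regulator of muscle lineage (−0.24, SE 0.20). The brighter probe set of Atp2a1 was lower on every array and not called (−2.45), and a second, dimmer one of Ckm overlapped (0.03). Without ILn A, none of Atp2a1, Tnnt3, Myh1, Actn3, Cox6a2, Tnnc2 and Ckm was called, nor was any of them with title date as a block. The part of muscle tissue in the samples was not tested.

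**Figure D4:**
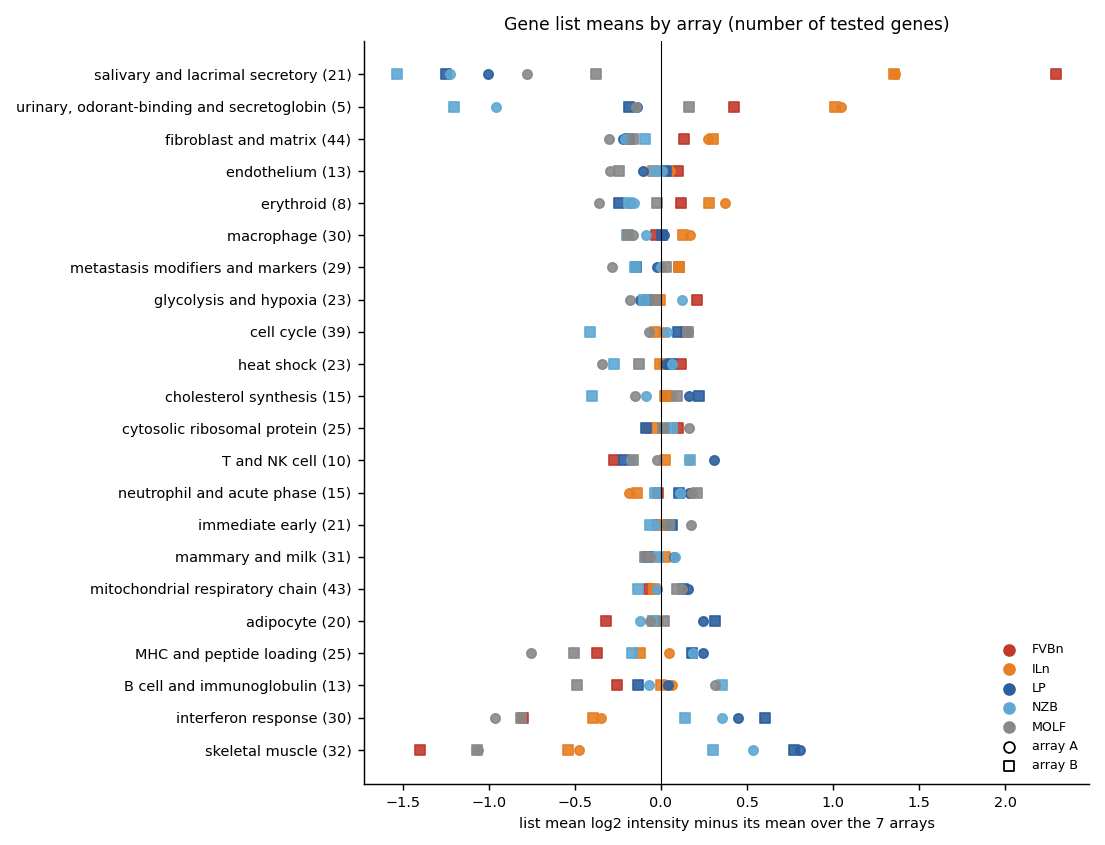
Mean log2 intensity of each gene list on each of the 9 strain arrays, minus the list's mean over the 7 arrays compared (x axis). Each row is a list with its number of measured genes in brackets, each point is an array (circles A, squares B, colours by strain), and rows are ordered by the median difference between sides. Salivary genes (2.46) lie at the top and muscle genes (−1.38) at the bottom.

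Some collagen and matrix genes, 5 of 44 measured, were called higher in FVBn and ILn. Col1a2, a chain of type I collagen, measured 9.75, 10.27 and 10.31 on FVBn B, ILn A and ILn B and 8.70, 8.53, 8.62 and 8.33 on LP A, LP B, NZB A and NZB B (difference 1.56, SE 0.17, or 2.96-fold). Lum, a proteoglycan that spaces collagen fibrils, measured 8.36, 8.71 and 8.64 against 7.08, 7.09, 7.45 and 6.87 (difference 1.45, SE 0.20). Col3a1 measured 9.66, 9.79 and 9.78 against 8.53, 8.58, 8.87 and 8.74 (difference 1.06, SE 0.13). The sides did not overlap in these probe sets, but a second probe set of Col1a2, and 1 of the other 2 of Col3a1, overlapped with differences of −0.27 and −0.14. Col5a2 (1.70, SE 0.32), Bgn, a small proteoglycan (0.73, SE 0.14), and Postn, a matrix protein on both the fibroblast and the metastasis lists (0.84, SE 0.15), were called too, and Col5a2 and Postn lost the call in 14 of 20 other settings. Lum and Col3a1 were not called without ILn A or without ILn B, nor Col1a2 without ILn A.

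Of 44 measured fibroblast and matrix genes, 5 were called higher and 0 lower, 18 were higher on every array and 0 lower on every array. Over all 6630 genes, 24 were called higher and 430 were higher on every array. The median difference was 0.34, against 0.01 over all genes. The list's mean level was 7.87 to 8.03 on FVBn and ILn, 7.51 to 7.64 on LP and NZB and 7.43 to 7.57 on MOLF. The brighter probe set of Col1a1 (0.81, SE 0.16) and Dcn, decorin (0.73, SE 0.25), kept the sides apart and were not called, the other probe sets of Col1a1 (−0.11) and of Bgn (−0.07) overlapped, and Vim, a filament protein of mesenchyme, overlapped at −0.74 (SE 0.45). Of the 29 measured genes of the metastasis list, 1 was called, Postn, and the median difference was 0.11.

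Blood, vessel and immune cell lists had few called genes, as had all 6630 genes, where 24 were called higher and 32 lower. At that share, lists of this size would hold few calls or none, so nothing is read from their counts. Hba-a1, the alpha chain of haemoglobin, measured 10.16, 10.79 and 10.48 on FVBn B, ILn A and ILn B and 8.68, 8.70, 9.30 and 8.94 on LP A, LP B, NZB A and NZB B (difference 1.57, SE 0.20, or 2.97-fold), and was not called without ILn A or without ILn B. The beta chain Hbb-b2 (1.78, SE 0.41) and Alas2, the enzyme that starts haem synthesis in red cells (1.16, SE 0.27), also kept the sides apart and were not called. The called probe set of Cd34, a surface protein of vessels and progenitors, lay near the floor at 5.98, 5.65 and 5.94 against 4.75, 4.75, 4.82 and 4.75, and its other probe set overlapped (0.26). The Cd34 call was kept in 6 of the 18 other settings that tested it. Of 13 endothelium genes, 1 was called, Notch4, and Pecam1 (0.32, SE 0.32) and Cdh5 (−0.05, SE 0.24) overlapped.

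Of 30 macrophage genes 0 were called, with a median difference of 0.14 and the receptor Csf1r at 0.17 (SE 0.18), and of 10 T and NK cell genes 0 were called, with a median of −0.04. Of 13 B cell genes 0 were called. In that list the IgA heavy chain Igha measured 7.51, 9.09 and 9.37 against 7.24, 7.07, 7.05 and 6.11 and kept the sides apart (difference 1.79, SE 0.45). Its other probe set overlapped at 0.33. No gene was called in the lists of adipocyte (20 measured), cell cycle (39), immediate early (21), heat shock (23), cholesterol synthesis (15), cytosolic ribosomal protein (25) and mitochondrial respiratory chain (43) genes, whose medians ran from −0.21 to 0.10. Over all 6630 genes 24 were called higher and 32 lower, so nothing is read from the absence of calls in lists of this size. The glycolysis and hypoxia list (23) had no call by its brightest probe sets and a median of 0.10, with a dimmer probe set of Aldoa called at −0.95 (SE 0.18). This Aldoa call was kept in 5 of 20 other settings.

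Other genes with large differences do not belong to these lists. The called probe set of Psap, the precursor of lysosomal saposins, measured 7.22, 6.99 and 7.07 against 4.77, 4.75, 4.96 and 4.75 (difference 2.28, SE 0.22), while its other 2, both brighter, overlapped at 0.32 and −0.26. Psap is thus not shown to differ as a gene. Igfbp3, which binds insulin-like growth factors, measured 7.62, 6.19 and 6.32 against 4.75, 4.92, 4.77 and 4.75, with its other probe set overlapping at 0.62 (SE 0.49). Igfbp3 was called in 6 of the 18 other settings that tested it. Sgip1, an adaptor in endocytosis, measured 6.48, 6.67 and 6.46 against 4.75, 4.95, 4.75 and 4.75, and was called in 16 of 19. Ssr3, a subunit of the complex that helps proteins enter the endoplasmic reticulum, was called in 2 of its probe sets (1.5 and 1.04), and the third, the brightest, overlapped at 0.17. Gm9706 was lower at 5.17, 5.86 and 5.97 against 7.70, 8.0, 7.72 and 7.08, and was called in 9 of 20 other settings.

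In the urinary, odorant-binding and secretoglobin list, 5 of 16 genes were compared and all 5 had a difference above 0, with 1 called, Scgb1b27. Over all 6630 genes, 3376 had a difference above 0 and 24 were called higher. The major urinary protein Mup5, a carrier of pheromones, measured 7.48, 9.15 and 9.04 against 7.52, 7.00, 4.75 and 4.75, and LP A lay above FVBn B. Scgb1b2 kept the sides apart (8.88, 10.30 and 9.90 against 8.39, 8.12, 8.12 and 8.30) and was not called.

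The MOLF arrays stayed out of the fit of the sides and are described here for the called probe sets. Of the 50 probe sets called higher in FVBn and ILn, the mean of MOLF lay nearer FVBn and ILn for 8, and both MOLF arrays lay below all FVBn and ILn arrays for 44. They still lay above all LP and NZB arrays for 21 of the 50. Bpifa2, at 11.54 and 11.83, Smr3a, at 9.30 and 9.42, and Chia1, at 8.01 and 8.38, were intermediate in this way, while Pip, at 4.75 and 5.29, was not. Of the 43 called lower, the mean of MOLF lay nearer FVBn and ILn for 37. The exceptions included D17H6S56E-5, at 10.42 and 10.03, and Pglyrp1, at 10.39 and 10.27, where MOLF matched LP and NZB. No test of likeness to MOLF was made. The called probe sets were picked for FVBn and ILn arrays lying beyond LP and NZB, and no such share was taken over all probe sets. Nothing is therefore read from the MOLF counts.

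The tests that the choice of arrays left free concern the strains within each side. FVBn against ILn was tested in limma, fitting the 5 strain names over 9 arrays, on 9897 probe sets. FVBn has 1 array, assumed to vary like the others. There 8 probe sets (0.0808%) were higher in FVBn and 6 (0.0606%) lower, and 226 had an unadjusted p under 0.05. None passed without ILn A, without ILn B or with title date as a block. Leaving out an ILn array sets 1 array against 1, so this loss does not show which array the calls rest on. FVBn B, the only FVBn array, could not be left out.

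The 8 probe sets higher in FVBn than in ILn were those of Mucl1, Mucl2 (2 probe sets), Prol1, Klk1b5 and Crct1, and 2 with no gene symbol. Mucl1, a mucin-like protein, measured 11.86 on FVBn B and lay at the floor on ILn A and ILn B, a difference of 7.11 (SE 0.33), at least 138-fold (limma, adjusted p = 0.000753). On LP and NZB it also lay at or within 0.1 of the floor, so FVBn B stood alone. Prol1, a proline-rich lacrimal protein, measured 13.10 on FVBn B against 7.69 and 7.57 on ILn, a difference of 5.47 (SE 0.53, limma, adjusted p = 0.0124), with LP and NZB at 6.92 to 7.71. Mucl2, another mucin-like protein, measured 12.56 against 7.95 and 7.64 (difference 4.77, SE 0.46, limma, adjusted p = 0.0124), and its second probe set passed too (4.32). Mucl2 was at or near the floor on LP and NZB, so ILn lay between.

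A probe set of Klk1b5 was higher by 2.42 (SE 0.29, limma, adjusted p = 0.0365), with its brighter probe set at 2.30 and not past the test (adjusted p = 0.261). Crct1, at 7.13 on FVBn B and at the floor on ILn, was at least 5.18-fold higher (limma, adjusted p = 0.0182), and its other probe set did not pass (0.78).

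The 6 probe sets lower in FVBn than in ILn were those of Acta1, Myh4, Obp1a and Ighm, and 2 with no gene symbol (differences −3.88 and −2.12). Acta1, the actin of skeletal muscle, measured 7.87 on FVBn B against 10.12 and 10.17 on ILn A and ILn B, a difference of −2.28 (SE 0.16, limma, adjusted p = 0.00786), and Myh4, a fast myosin heavy chain, measured 4.92 against 8.08 and 8.38 (−3.32, SE 0.36, limma, adjusted p = 0.0220). LP and NZB were higher still, at 11.48 to 11.61 for Acta1 and 9.84 to 11.03 for Myh4. The second probe set of Myh4 did not pass and differed by 0.95. Obp1a, an odorant-binding protein, lay at the floor on FVBn B and measured 8.77 and 8.57 on ILn, at least 15.1-fold higher there (limma, adjusted p = 0.0124). A probe set of Ighm, the IgM heavy chain, lay at the floor on FVBn B and measured 8.26 and 8.35 on ILn (limma, adjusted p = 0.0124). The other 5 probe sets of Ighm did not pass, with differences between −0.86 and 0.00.

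**Figure D5:**
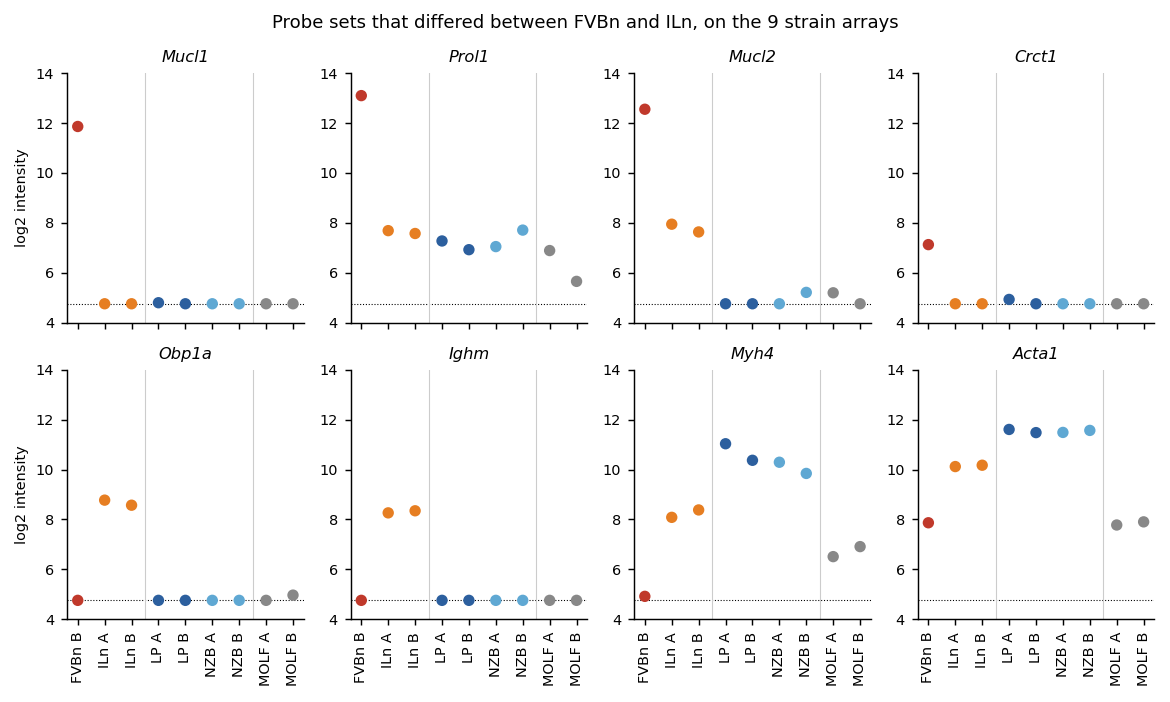
Log2 intensity (y axis) on the 9 strain arrays (x axis) of the 8 genes named in the text as different between FVBn and ILn other than Klk1b5, 1 point per array, with strains coloured red (FVBn), orange (ILn), dark blue (LP), light blue (NZB) and grey (MOLF) and the floor of 4.75 as a dotted line. Mucl1 stands at 11.86 on FVBn B alone, and Obp1a and the Ighm probe set lie above 8 on the ILn arrays alone.

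LP against NZB gave 1 called probe set of 9897, which was lower in LP (0.0101%), and 0 (0%) that were higher, with 660 at an unadjusted p under 0.05 in limma. The probe set was that of the casein Csn1s2a, a milk protein, at 8.88 and 8.98 on LP A and LP B and 10.70 and 10.82 on NZB A and NZB B. It was 3.56-fold lower in LP (difference −1.83, SE 0.14, limma, adjusted p = 0.0230), and FVBn and ILn lay between at 9.31 to 9.89. The call of Csn1s2a was lost without LP A, without LP B, without NZB B, with median centring and with title date or array letter as a block. Without NZB A, 6 probe sets were called, Csn1s2a among them.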

How the data were processed

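The authors' deposited intensity values, 1 per probe set and array on a linear scale, were used. No source used here gives how probes were summarised. The mean after leaving out the lowest and highest 2% was about 150.0 on each array but ILn A (499.9). The log2 values of the 9 strain arrays were quantile normalized, the remaining array was mapped onto their distribution, and values under the 30th percentile were raised to it. Of 12488 probe sets, 66 controls were left out. Symbols came from the platform annotation (10855 probe sets with 1 symbol, 396 with several, 1237 with none), updated through RefSeq, where 10839 matched. Differences were fitted with limma 3.58.1 in R 4.3.3 (lmFit, eBayes with trend, Benjamini-Hochberg): for the sides, 2 means over 7 arrays (5 residual degrees of freedom), and within sides, strain means over 9 arrays (4). The scripts were tested on simulated data. The number of arrays limits the precision.

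The arrays and gene lists were chosen with earlier results of these data known. Named genes were the 15 with the largest differences each way among those called without overlap, up to 5 each way within sides, up to 4 called members (or 2 with the largest differences) per list, and the 5 marker genes. Others named were chosen after their values were seen. Alternatives covered scaling, floor, filter, trend, model, blocks, batches and leaving out arrays.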

Additional observations from a re-analysis of the deposited data

Results flagged for a closer look

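In 10 of 69 sets of 4 values from the LP and NZB arrays, 1 array lay far from the other 3 by Dixon's test, which chance alone does in about 1 set in 20. In 5 of the 10, the other 3 arrays lay at or just above the floor, so that a small excess was enough: Klk1 on NZB A (4.86), Psap on NZB A (4.96), Igfbp3 on LP B (4.92), Sgip1 on LP B (4.95) and Cd34 on NZB A (4.82). Smr3a on NZB A (6.35) was well above the floor at which LP A, LP B and NZB B lay. The other 4 were all on NZB B: D17H6S56E-5 (9.96) was lower than on the other 3, Aldoa (11.2) higher, and the means of the MHC list (8.03) and the heat shock list (8.56) lower. NZB B is also, of the 7 arrays compared, the one that stands apart over all probe sets.

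The array with no strain name entered no comparison. It lay more than 1 log2 unit above each of the 9 strain arrays for the muscle genes Atp2a1 (11.9), Tnnt3 (10.9), Myh1 (10.6), Actn3 (10.7), Tnnc2 (11.2) and Ckm (9.71), the matrix genes Col5a2 (10.03), Lum (10.2) and Col3a1 (11.1), and Hba-a1 (12.7). Its muscle list mean was 9.59 and its adipocyte list mean 10.7, against 7.30 to 7.60 for adipocyte genes on FVBn and ILn and 7.49 to 7.93 on LP and NZB.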

How the results depend on the processing

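Among the alternatives run, the direction of the 42 named called genes never changed (842 values, of which 258 lost the call). These genes kept the sides apart on every array. Their direction therefore could not change on leaving out an array or within a title date batch that holds both sides. Nor could it change with strain, title date or array letter as a block. Other filters, eBayes without trend and the model of strain means used the same array values, so the direction was fixed there too. In all these settings the unchanged direction is no separate check, and only the loss of calls is informative. At most the alternatives of scaling and floor could have changed the direction. Bpifa2, Chia1, D17H6S56E-5 and Pglyrp1 were called in all 20 alternatives with a test. Smr3a, Pip, Prpmp5 and Psap were called in the 19 that tested them. Amy1, Dnase1 and Gm4736 were called in the 15 that tested them. With LP and NZB at the floor, the filter dropped these last genes without FVBn B, ILn A or ILn B. It also dropped them in batch 4 alone and where all 7 arrays had to lie above the floor. Of genes that were not called, 3 changed sign within batch 4: Iglc1 (0.0398), Dnajb1 (−0.00414) and Bag3 (−0.0888). The counts called higher and lower (50 and 43) depended more on the setting. Median centring gave 20 lower, no filter on dim probe sets 22 lower, eBayes without trend 27 lower, and a filter on all 7 arrays 25 higher. Title date as a block gave 18 and 12, and batch 4 alone 10 and 5. Leaving out 1 array gave 8 to 87 higher and 4 to 74 lower, lowest without ILn A and highest without NZB B, where all 93 were among those called. Without FVBn B the counts were 28 and 28, without ILn B 14 and 13, without LP A 22 and 16, without LP B 26 and 17, and without NZB A 28 and 18. The array letter as a replicate block gave 31 and 23. The letters do not pair the samples, since A minus B correlated between strains at −0.68 to 0.14.

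For FVBn against ILn (14 called), no filter gave 25, title date as a block 0, the letter as a replicate block 1, and leaving out 1 ILn array 0. For LP against NZB (1 called), median centring, title date as a block and the replicate block each gave 0 (503, 319 and 538 at an unadjusted p under 0.05 in limma), and leaving out 1 array gave 0 to 6. Causes of these changes were not tested, except that leaving out arrays and batch 4 alone leave fewer samples. For the sides, 8 of the 50 probe sets called higher lay at the floor on all LP and NZB arrays. The filter on low values dropped them without an FVBn or ILn array and in batch 4 alone. Of 440 medians of lists under alternatives, 29 moved beyond the spread between arrays. The number of arrays and the floor, which hides levels under 27.0, limit what can be seen.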

Other observations

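The array with no strain name, compared with nothing above, lay nearer the FVBn and ILn arrays than the LP and NZB arrays for 17 of the 50 probe sets called higher and for 20 of the 43 called lower. No such share was taken over all probe sets, so nothing is read from these counts. Some single values of the array with no strain name follow. It measured 8.61 for Amy1 and 5.35 for Bpifa2, and its salivary list mean was 5.77, below every strain array. Its milk gene Wap lay at the floor, where the 9 strain arrays measured 10.19 or more.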
